A study of Mus musculus with 2 samples.

Results

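The genes described here are 43 ligands, latency proteins, receptors, Smads, antagonists and targets of the TGF-beta, BMP and activin pathway, chosen by name and found by matching the RefSeq transcripts of the deposited table to mouse symbols. Of these, 42 were among the 16881 transcripts of the table and 40 were measured, meaning a mean of at least 1 CPM (fragment counts scaled to library size) over both libraries. Bmp5 was not analysed here, and Bmp2 and Bmp7 lay below the minimum. RNA was sequenced from 2 cultures of immortalised mouse embryonic fibroblasts of the C57BL/6 strain. One carried intact p65 (p65+/+, wild-type here) and the other lacked it (p65-/-, p65-null here). p65, encoded by Rela, is a DNA-binding subunit of NF-kB, and the design asks which genes differ in its absence. No treatment is given for either culture, and the labels do not say how the lines were immortalised or whether either is a single clone.

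TGF-beta is secreted in a latent complex, tied to the extracellular matrix by latent TGF-beta binding proteins, and must be released before it can bind. Released ligands of the family bring together type II and type I receptor kinases, which phosphorylate Smad2 and Smad3 for TGF-beta and activin, or Smad1 and Smad5 for BMPs. These join Smad4 and act on genes in the nucleus, while Smad6, Smad7, Ski and Skil hold the signal back. In fibroblasts the pathway is known for driving matrix production and the contractile myofibroblast state.

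Each genotype had 1 library, so differences could not be set against a spread between replicates and carry no p-value. Ratios divide the p65-null by the wild-type level, and brackets hold 95% Clopper-Pearson intervals, which cover counting error only. The libraries held 20794475.5 wild-type and 15441394 p65-null fragments, with a single read taken as 0.5. Rela had 1918 wild-type and 198.5 p65-null fragments, so that 14.5% of its wild-type level remained. The lines also differed outside p65: Xist had 956 wild-type and 2 p65-null fragments, the Y-linked Kdm5d 0 and 207, and the tumour suppressor gene Cdkn2a 1693.5 and 3. What separates the 2 lines and what follows the loss of p65 cannot be told apart, and "with p65" and "without it" below only name the libraries. All 9 fibroblast markers found in the table were measured, with a summed level of 9962 wild-type and 21536 p65-null normalised CPM. Thy1 and S100a4 among them had log2 ratios of -3.10 and 3.64, and the collagen genes Col1a1, Col1a2 and Col3a1 made up most of the sum. Epithelial markers summed to 0.118 wild-type and 2.81 p65-null CPM, with 4 of 6 at 0 in the wild-type library and 0 of 6 at 0 in the p65-null library. Endothelial markers summed to 8.28 and 20.3 CPM, nearly all of it Egfl7 and Kdr, with Tek and Cldn5 at 0 in the wild-type and Cdh5 and Vwf at 0 in the p65-null library. Macrophage markers summed to 20.7 and 10 CPM, with Cd14 the highest gene in both, Ptprc at 0 in the p65-null library and Fcer1g at 0 in the wild-type library. Chondrocyte and osteoblast markers summed to 85.5 and 158 CPM, mostly Col2a1 in the p65-null library, which stood at 31.1 and 129 CPM. Of the 5 measured, 2 were above 0 and 3 below, among them Acan at 14.1 and 0.330 CPM and Alpl at 14.8 and 3.30 CPM. Adipocyte markers summed to 16.1 and 22.6 CPM. Smooth muscle markers summed to 3580 and 3710 CPM, mostly Acta2. The part of other cells in the results below was not tested.

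Across the 40 measured genes, 6 (15%) were higher in the p65-null library by 2-fold or more, 8 (20%) were lower by that much, and 26 lay between. Over all 12135 measured genes these shares were 12.2% higher and 13.7% lower, so the number of pathway genes past 2-fold was near the background in both directions. Scaled to ribosomal protein genes, 6 pathway genes were higher and 12 lower, against 7.41% and 24.9% of all genes. The median log2 ratio was 0.04 for the pathway and -0.03 for all measured genes. The higher genes were Fstl3, Inhbb, Tgfb3, Ltbp4, Tgfb2 and Tgfbi, and the lower ones were Bmpr1b, Nog, Skil, Inhba, Id2, Ltbp2, Bmpr2 and Eng. Of the higher genes in mm10, Fstl3 lies at chr10:79777274-79782630, Inhbb at chr1:119415463-119422248 and Tgfb3 at chr12:86056743-86079041. Ltbp4 lies at chr7:27305140-27339720, Tgfb2 at chr1:186622787-186709697 and Tgfbi at chr13:56609586-56639359. Of the lower genes, Bmpr1b lies at chr3:141837135-142169585, Nog at chr11:89300638-89302559, Skil at chr3:31095058-31122923 and Inhba at chr13:16004256-16031609. Id2 lies at chr12:25093799-25096092, Ltbp2 at chr12:84783212-84876558, Bmpr2 at chr1:59764279-59878081 and Eng at chr2:32646595-32682669. For all 6 higher genes and for 7 of the 8 lower ones, all but Eng, both ends of the counting interval were past 2-fold (background 7.99% and 9.08%). The ratio followed transcript GC content over all genes. Values corrected for GC content and length are given for pathway genes that the correction moved to 0, across 0 or across 2-fold. They are given for only some of the other genes, so an absent value does not mean no change. For example, the log2 ratio of Ltbp4 went from 1.72 to 1.33 and that of Eng from -1.09 to -1.49. The plot of log2 ratios by role shows the corrected values of all 40 genes as open diamonds.

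**Figure D1:**
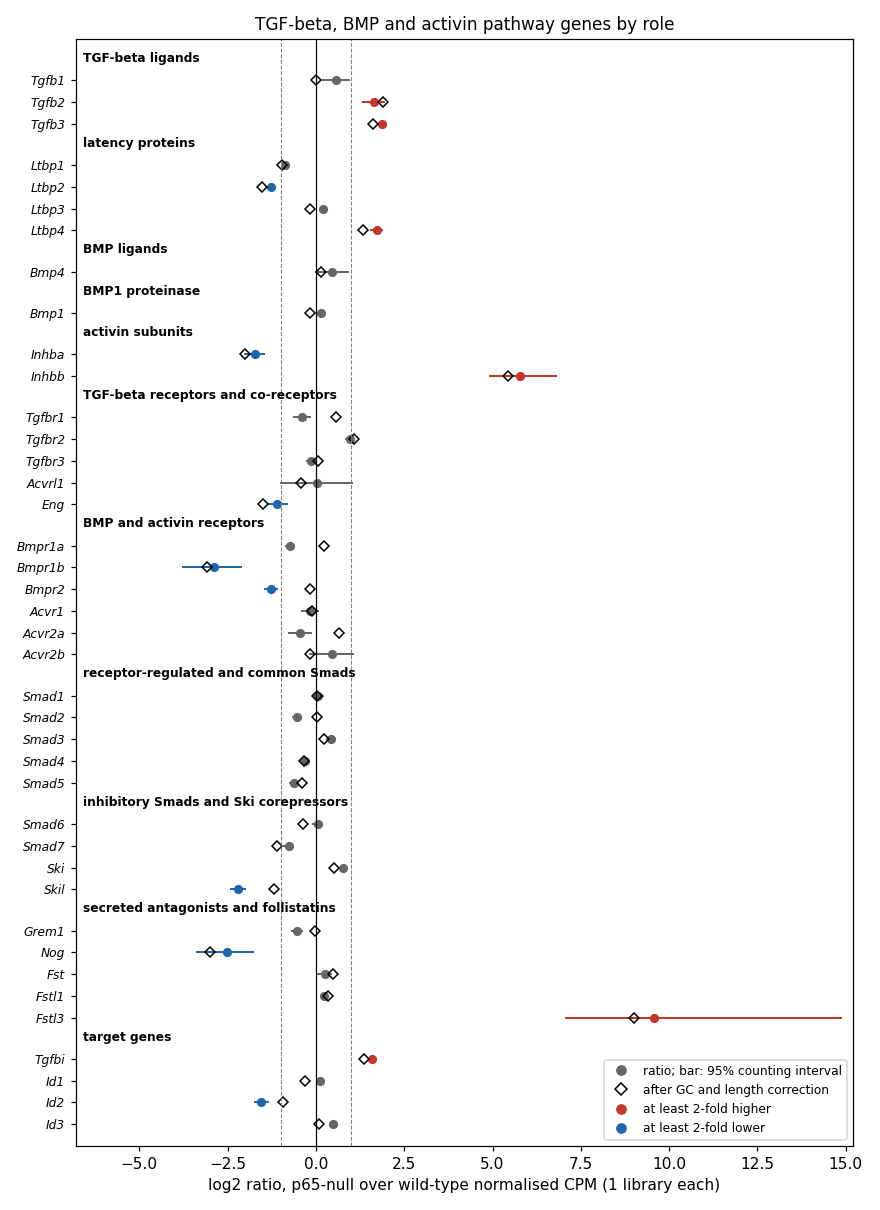
The log2 ratio of p65-null over wild-type normalised CPM is plotted for the 40 measured pathway genes by role; filled points are the ratios with their 95% counting intervals, and open diamonds are the ratios after correction for transcript GC content and length. Fstl3 at 9.56 and Inhbb at 5.78 stand far to the right, Bmpr1b at -2.89 and Nog at -2.52 lie farthest to the left, and the Smads drawn lie within 2-fold except for the diamond of Smad7 at -1.11 and, under scaling to ribosomal protein genes (not drawn), Smad5 at -1.03 and Smad7 at -1.18.

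Promoter sequences are shown for 3 higher and 3 lower genes past 2-fold, taken from genes with exactly 1 start in the set of promoters used here. They are those with the counting interval end nearest 0 farthest from 0. Each gene shown thus has a single listed start. The reads of Fstl3 and Ltbp2 cannot be assigned to 1 gene, since each overlaps another gene, as given below. Each run is 300 bases, from 250 before to 50 after the start, 5' to 3' on the gene's strand, in GRCm38.p6. Capitals mark CAGAC, the core of the Smad-binding element, GGCGCC, a GC-rich element bound by BMP Smads, TGANTCA, the AP-1 site, and the NF-kB consensus, each read on both strands.
Fstl3: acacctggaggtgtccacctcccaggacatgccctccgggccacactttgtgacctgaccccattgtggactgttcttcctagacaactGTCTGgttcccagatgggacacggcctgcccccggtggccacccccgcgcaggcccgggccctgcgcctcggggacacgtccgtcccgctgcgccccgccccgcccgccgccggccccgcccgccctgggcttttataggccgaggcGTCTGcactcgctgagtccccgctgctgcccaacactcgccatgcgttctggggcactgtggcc
Inhbb: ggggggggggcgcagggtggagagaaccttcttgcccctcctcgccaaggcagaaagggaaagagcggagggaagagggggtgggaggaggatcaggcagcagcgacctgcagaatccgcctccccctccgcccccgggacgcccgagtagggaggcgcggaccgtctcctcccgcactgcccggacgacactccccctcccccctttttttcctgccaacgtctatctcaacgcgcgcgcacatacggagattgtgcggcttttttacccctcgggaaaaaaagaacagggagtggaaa
Tgfbi: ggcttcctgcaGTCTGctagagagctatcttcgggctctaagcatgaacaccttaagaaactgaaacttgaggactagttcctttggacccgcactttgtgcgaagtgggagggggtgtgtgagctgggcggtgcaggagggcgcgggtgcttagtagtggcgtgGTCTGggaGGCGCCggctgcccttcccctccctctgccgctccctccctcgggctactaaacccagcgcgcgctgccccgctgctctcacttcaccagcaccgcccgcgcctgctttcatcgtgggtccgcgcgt
Inhba: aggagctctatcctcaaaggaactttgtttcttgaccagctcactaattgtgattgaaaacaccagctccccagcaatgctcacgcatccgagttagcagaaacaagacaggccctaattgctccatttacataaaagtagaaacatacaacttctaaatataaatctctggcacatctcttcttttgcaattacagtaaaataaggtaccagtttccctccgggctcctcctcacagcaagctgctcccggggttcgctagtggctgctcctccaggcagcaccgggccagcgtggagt
Id2: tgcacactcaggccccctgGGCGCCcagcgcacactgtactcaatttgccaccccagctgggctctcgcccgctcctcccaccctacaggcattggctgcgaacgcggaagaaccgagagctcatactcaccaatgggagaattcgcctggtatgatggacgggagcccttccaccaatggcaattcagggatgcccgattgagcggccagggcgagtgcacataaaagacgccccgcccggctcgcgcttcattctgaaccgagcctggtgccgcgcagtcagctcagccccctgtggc
Ltbp2: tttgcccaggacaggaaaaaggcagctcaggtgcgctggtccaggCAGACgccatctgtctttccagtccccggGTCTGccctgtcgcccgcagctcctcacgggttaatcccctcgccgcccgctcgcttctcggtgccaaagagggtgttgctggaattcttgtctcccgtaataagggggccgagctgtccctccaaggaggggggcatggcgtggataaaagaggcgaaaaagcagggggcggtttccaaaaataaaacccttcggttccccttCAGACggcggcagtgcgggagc

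The windows lie at chr10:79777024-79777323 (Fstl3, plus strand), chr1:119422199-119422498 (Inhbb, minus strand), chr13:56609336-56609635 (Tgfbi, plus strand), chr13:16011601-16011900 (Inhba, plus strand), chr12:25096043-25096342 (Id2, minus strand) and chr12:84876442-84876741 (Ltbp2, minus strand). CAGAC occurred 2 times in the Fstl3 window, 2 times in that of Tgfbi and 3 times in that of Ltbp2, while the Inhbb and Inhba windows held none of the motifs searched. GGCGCC occurred once each in the Tgfbi and Id2 windows. No marked motif overlapped another in these windows. The listed Inhba start lies inside the annotated gene given above. The set of promoters used here listed 38 starts for 30 of the 43 genes, and none for Tgfb3, Skil and Nog. CAGAC was found at 18 of these 38 starts (47.4%), against 49.6% of all 32851 listed starts. GGCGCC was found at 11 (28.9%, 9 genes) against 11.9% of all starts, TGANTCA at 1 (2.63%) against 7.81%, and the NF-kB consensus at 0 against 4.51%. These are letter matches in short windows, and starts of the same gene share sequence.

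All 3 TGF-beta ligand genes had higher levels without p65, except that Tgfb1 was at 0.00 on the log2 scale after the GC and length correction, and Tgfb3 was the most abundant in both libraries. Tgfb3 stood at 54.6 normalised CPM with p65 and 199 without it, 3.65-fold higher (3.41 to 3.91). Tgfb2 stood at 6.91 and 21.4 CPM, 3.09-fold higher (2.54 to 3.79). Tgfb1, the isoform most studied in fibrosis, had 129 wild-type and 136.5 p65-null fragments, or 6.08 and 9.02 CPM. Its log2 ratio was 0.57 (0.21 to 0.93), and after the correction Tgfb2 and Tgfb3 were past 2-fold at 1.90 and 1.61. Per transcript length, the summed level of the ligands was 20.3 FPKM (normalised CPM divided by transcript length in kb) with p65 and 67.3 without it. Tgfb3 made up 79.6% of that sum with p65 and 87.6% without it, while Tgfb1 made up 13.8% and 6.16%, and Tgfb2 6.65% and 6.21%. Tgfb3 overlaps Ttll5 on the opposite strand, which had a log2 ratio of 0.88, and the sources used here do not give whether reads were counted by strand.

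The latency proteins went opposite ways: Ltbp1 and Ltbp2 were lower and Ltbp4 higher under each scaling, while Ltbp3 was higher but turned after the correction and under scaling to ribosomal protein genes. Ltbp1, which ties TGF-beta to fibrillin microfibrils, was the most abundant, at 796 wild-type and 432 p65-null CPM, a log2 ratio of -0.88 (-0.92 to -0.84), or -1.29 under ribosomal protein scaling. Ltbp2, which binds fibrillin but not latent TGF-beta, stood at 438 and 181 CPM and was 2.41-fold lower (2.31 to 2.52). Ltbp4 stood at 22.5 and 74.0 CPM and was 3.29-fold higher (2.96 to 3.67). Ltbp3 was at 100.2 and 115 CPM, a log2 ratio of 0.20 (0.11 to 0.29), or -0.17 corrected and -0.21 under ribosomal protein scaling. Per length, the family's summed level was 209 FPKM with p65 and 129 without it, the reverse of the ligands. Ltbp1 made up 57.0% of it with p65 and 50.2% without it, Ltbp2 31.7% and 21.3%, Ltbp3 9.23% and 17.2%, and Ltbp4 2.10% and 11.2%. Ltbp2 overlaps the antisense gene D030025P21Rik, which had a log2 ratio of -1.47, so the reads of this pair cannot be assigned to 1 gene.

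The makeup of the activin subunits differed between the libraries. Inhba encodes the beta A chain of activin A and Inhbb the beta B chain of activin B. Inhba stood at 31.03 CPM (658 fragments) with p65 and 9.38 CPM (142 fragments) without it, 3.31-fold lower (2.76 to 3.99). Inhbb stood at 0.519 CPM (11 fragments) and 28.4 CPM (430 fragments), 54.8-fold higher (30.3 to 111). Per length, Inhba made up 99.4% of the summed beta chains in the wild-type library, whereas in the p65-null library Inhba made up 47.9% and Inhbb 52.1%. The summed level was 20.4 FPKM with p65 and 12.8 without it. After the GC and length correction the log2 ratios were -2.0 for Inhba and 5.43 for Inhbb, so both stayed past 2-fold. Inha, the inhibin alpha chain that pairs with either beta chain, had 9.5 wild-type and 34 p65-null fragments, a log2 ratio of 2.33 (1.26 to 3.54).

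The makeup of the follistatins, which bind and neutralise activins, differed as well. Fst stood at 25.6 wild-type and 30.4 p65-null CPM, a log2 ratio of 0.25 (0.07 to 0.43), and at -0.16 under scaling to ribosomal protein genes. Fstl3 had 1 fragment with p65 and 540.5 without it, 0.0472 and 35.7 CPM, a log2 ratio of 9.56 (7.08 to 14.87). Per length, Fst made up 99.7% of their summed level in the wild-type library, and Fstl3 63% of it in the p65-null library. The sum was 9.04 FPKM with p65 and 29.0 without it, a log2 ratio of 1.68. Inhbb and Fstl3 passed the minimum of 1 CPM only through the p65-null library, where their levels per length lay at percentiles 42.8 and 68.5 of the measured genes. Fstl3 overlaps Prss57 on the opposite strand, which had 0 wild-type and 338 p65-null fragments, so the reads of this pair cannot be assigned to 1 gene. Fstl1, a follistatin-related glycoprotein of mesenchymal cells, was the most abundant pathway gene by CPM in both libraries, at 867 and 1009 CPM, and its log2 ratio of 0.22 became -0.19 under scaling to ribosomal protein genes.

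**Figure D2:**
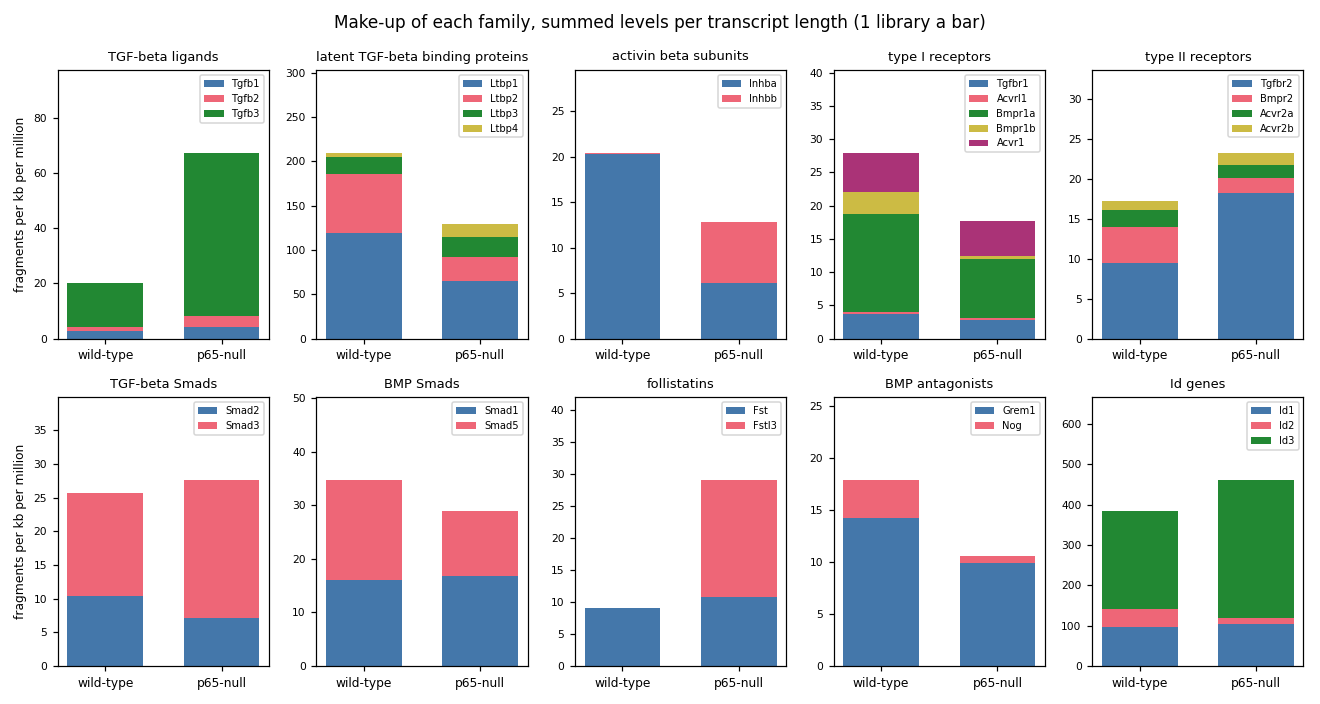
Stacked bars give the level per transcript length, in FPKM, of the genes of 10 families in the wild-type and the p65-null library, 1 library a bar. The activin beta chain sum is 99.4% Inhba with p65 and 52.1% Inhbb without it, and the follistatin sum passes from 99.7% Fst to 63% Fstl3.

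Of the BMP ligands, only Bmp4 was measured, at 4.01 wild-type and 5.48 p65-null CPM, with 85 and 83 fragments and a log2 ratio of 0.45 (0.00 to 0.91). Bmp2 had 0 wild-type and 16 p65-null fragments and was at least 5.40-fold higher, the lower end of its counting interval. Bmp7 had 3 and 0 fragments, too few for a ratio. Bmp1, which despite its name is a procollagen C-proteinase, stood at 111 and 122 CPM; its log2 ratio of 0.14 was -0.18 after the correction and -0.27 under scaling to ribosomal protein genes. The BMP antagonist genes Nog and Grem1 were both below 0, though Grem1 was at -0.04 after the correction. Nog, which encodes noggin, stood at 6.06 CPM (128.5 fragments) and 1.06 CPM (16 fragments), 5.73-fold lower (3.40 to 10.3). Grem1, which encodes gremlin and was the more abundant of the pair, stood at 59.1 and 41.0 CPM, with a log2 ratio of -0.53 (-0.67 to -0.39). Per length, Grem1 made up 79.9% of the summed level of both with p65 and 94.1% without it.

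Among the type II receptors, Tgfbr2 was higher and Bmpr2 lower in the p65-null library, and the activin receptors turned with the correction. Tgfbr2 stood at 76.6 wild-type and 148 p65-null CPM, 1.93-fold higher (1.81 to 2.06), and it passed 2-fold after the correction at 1.09 and under upper quartile scaling at 1.07. Bmpr2, the type II receptor for BMPs, stood at 59.1 and 24.6 CPM and was 2.4-fold lower (2.13 to 2.70), but its log2 ratio was -0.16 after the correction. Its transcript was the longest of the pathway at 12899 bases, with a GC content of 41.0%. Per length, Tgfbr2 made up 54.8% of the 4 type II receptor genes with p65 and 78.6% without it, and Bmpr2 26.5% and 8.21%. Acvr2a and Acvr2b, the activin type II receptors, had log2 ratios of -0.44 (-0.76 to -0.14) and 0.44 (-0.16 to 1.04), which turned to 0.64 and -0.16 after the correction. Acvr2a overlaps Orc4 on the opposite strand, at -1.54.

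The type I receptor with the largest difference was Bmpr1b, a BMP receptor of limb and cartilage development. It stood at 7.10 CPM (150.5 fragments) with p65 and 0.958 CPM (14.5 fragments) without it, 7.41-fold lower (4.32 to 13.7), and its log2 ratio was -3.08 after the correction. Bmpr1b passed the minimum of 1 CPM only through the wild-type library. The more abundant BMP receptor Bmpr1a stood at 88.3 and 53.4 CPM, a log2 ratio of -0.73 (-0.85 to -0.61) that turned to 0.23 after the correction and was past 2-fold under scaling to ribosomal protein genes, at -1.14. Tgfbr1, the type I receptor for TGF-beta, was at -0.40 (-0.63 to -0.17) and likewise turned, to 0.58. Acvr1 was at -0.16 (-0.39 to 0.07) and Acvrl1, an endothelial receptor with 22 and 16 fragments, at 0.03 (-1.0 to 1.02), or -0.41 after the correction. The direction of Acvrl1 was not detectable at this depth. Of the co-receptors, Tgfbr3, or betaglycan, had a log2 ratio of -0.15 (-0.25 to -0.04), or 0.06 after the correction. Eng, or endoglin, stood at 20.4 and 9.61 CPM and was 2.12-fold lower (1.75 to 2.58), and it lay within 2-fold under upper quartile scaling, at -0.97. Eng overlaps Fpgs on the opposite strand, at 0.15.

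Smad1 to Smad5 lay within 2-fold, apart from Smad5 under scaling to ribosomal protein genes, at -1.03, while the further BMP Smad, Smad9, was 5.19-fold lower (described with the other regulators). Smad3 stood at 77.8 wild-type and 104 p65-null CPM, a log2 ratio of 0.42 (0.32 to 0.52). Smad2 stood at 83.7 and 57.4 CPM, at -0.54 (-0.66 to -0.43), or 0.02 after the correction. Smad4, the partner of both branches, was at -0.31 (-0.43 to -0.20). On the BMP side, Smad1 was at 0.06 (-0.07 to 0.20) and Smad5 at -0.62 (-0.74 to -0.50). Per length, Smad3 made up 59.6% of the sum of Smad2 and Smad3 with p65 and 74.3% without it. Smad1 made up 46.3% of the sum of Smad1 and Smad5 with p65 and 58.1% without it. Under scaling to ribosomal protein genes the log2 ratio of Smad1 was -0.35 and that of Smad3 0.01.

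Of the 4 proteins that restrain Smads, 1 was past 2-fold, on the lower side (background 13.7%), and 2 were after the correction (background 9.24%). Skil, which encodes the corepressor SnoN and is itself a TGF-beta target, stood at 81.3 wild-type and 17.6 p65-null CPM and was 4.63-fold lower (4.06 to 5.28). The correction brought its log2 ratio from -2.21 to -1.20, still past 2-fold. Its relative Ski went the other way, at 99.3 and 169 CPM, a log2 ratio of 0.77 (0.69 to 0.85). Of the inhibitory Smads, Smad7, which blocks TGF-beta receptors and is induced by them, stood at 82.0 and 48.0 CPM, a log2 ratio of -0.77 (-0.90 to -0.65). Smad7 was past 2-fold after the correction, at -1.11, and under scaling to ribosomal protein genes, at -1.18. Smad6, which acts mainly on BMP signals, was at 0.05 (-0.07 to 0.17), or -0.37 after the correction and -0.36 under scaling to ribosomal protein genes. Smad6 and Smad3 are neighbours on chromosome 9.

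The target genes did not go one way. Tgfbi, a matrix protein named for its induction by TGF-beta, stood at 65.4 wild-type and 197 p65-null CPM and was 3.01-fold higher (2.82 to 3.21). Its measured neighbours on chromosome 13 are Smad5 at -0.62 and Cxcl14 at 4.32. The Id genes encode inhibitors of basic helix-loop-helix factors and are induced by BMPs. Id3, the most abundant, stood at 310.1 and 435 CPM, a log2 ratio of 0.49 (0.44 to 0.54), and Id1 at 89.3 and 97.1 CPM, at 0.12 (0.02 to 0.22). Id2 stood at 58.9 and 20.1 CPM and was 2.93-fold lower (2.58 to 3.33). After the correction the log2 ratios were 0.08 for Id3, -0.31 for Id1 and -0.93 for Id2, which then lay within 2-fold. Per length, Id2 made up 12.1% of the summed Id level with p65 and 3.45% without it.

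**Figure D3:**
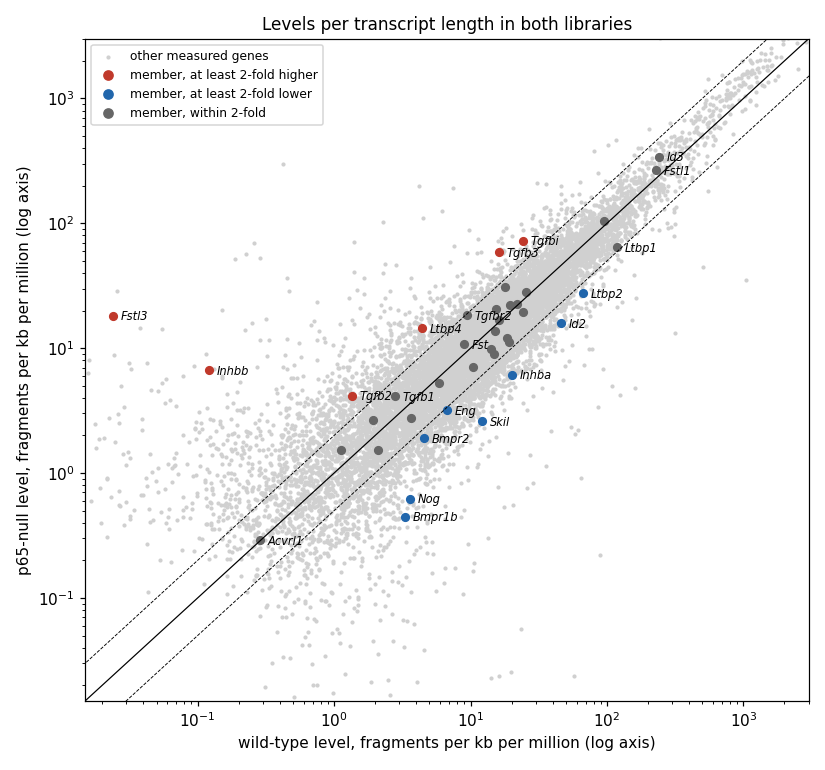
The level per transcript length, in FPKM on log axes, is plotted for the wild-type library (x) against the p65-null library (y), for 40 pathway genes over the other measured genes above 0 in both libraries; dashed lines mark 2-fold. Fstl3 and Inhbb lie far to the upper left, while Fstl1 and Id3 lie close to the diagonal at the top.

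Transcript composition moved with the ratios. Over 11990 measured genes with a matched transcript, the log2 ratio and the GC content had a Spearman rho of 0.435, and over the 40 pathway genes it was 0.383, as a description across genes of the same pair of libraries. The type I and type II receptor genes Tgfbr1, Bmpr1a, Bmpr2 and Acvr2a, with GC contents of 41.0%, 41.3%, 41.0% and 39.9%, were all below 0, and after the correction their log2 ratios were 0.58, 0.23, -0.16 and 0.64. After the correction 7 pathway genes were higher by 2-fold or more (background 11.2%) and 7 lower (background 9.24%). Smad7 and Tgfbr2 were then past 2-fold and Bmpr2 and Id2 no longer were. In all, 12 of the 40 genes lay on the other side of 0 or at it.

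**Figure D4:**
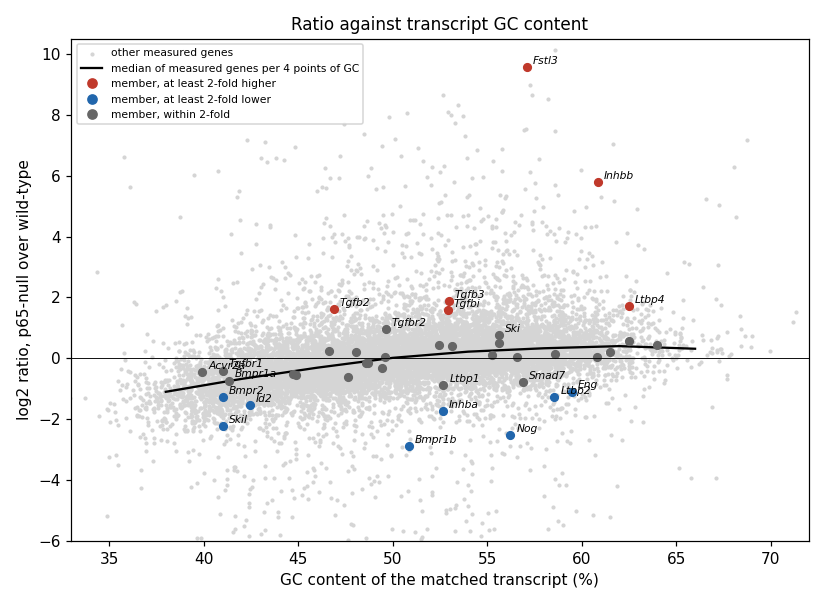
The log2 ratio of p65-null over wild-type is plotted against the GC content of the matched transcript, in percent, for the pathway genes and the other measured genes; the black line is the median of measured genes in steps of 4 percentage points, and genes outside the axes are not drawn. The line runs upward from left to right. Skil, Id2 and Bmpr2 have GC contents toward its low-GC end, and Nog, Eng, Inhba and Bmpr1b lie below it at higher GC content. After the GC and length correction Bmpr2 was at -0.16, while Skil and Id2 were at -1.20 and -0.93.

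Other genes of the pathway, in lists of their own, showed where else the libraries differed. Of 24 measured intracellular regulators, 8 were lower by 2-fold or more (background 13.7%) and 0 higher (background 12.2%), with a median log2 ratio of -0.78 and a median GC content of 47.0%. After the correction 3 were at least 2-fold lower (background 9.24%) and the median was -0.38. Smad9, the third BMP Smad, stood at 42.9 wild-type and 8.26 p65-null CPM and was 5.19-fold lower (4.30 to 6.31), or -2.17 after the correction. The ubiquitin ligase gene Wwp1 and the deubiquitinase gene Usp9x had ratios lower by 4.04-fold (3.30 to 4.99) and by 2.73-fold (2.60 to 2.87), and lay within 2-fold after the correction, at -0.87 and -0.27. Before the correction Tab1 and Usp4 were the highest, at 0.42 and 0.22, and after it they were at 0.01 and 0.12.

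Among 8 measured other antagonists, 1 was at least 2-fold lower and 1 higher, 12.5% each against 13.7% and 12.2% of all genes. Bmper, a BMP-binding protein, was 7.45-fold lower (6.0 to 9.36). Crim1 and Twsg1 had log2 ratios of -0.97 and -0.81, or -0.9 and -0.39 after the correction. Fmod, a collagen-binding proteoglycan that can also bind TGF-beta, was 248-fold higher (150 to 444), and Bgn and Dand5 were at 0.19 and 0.53, with Bgn at -0.06 after the correction. Fmod passed the minimum of 1 CPM only through the p65-null library. Of 16 measured genes of activation and processing, 4 were past 2-fold on the higher side (background 12.2%) and 2 on the lower (background 13.7%), with a median of 0.73. The correction left 4 higher (background 11.2%), not all of them the same genes, and 2 lower (background 9.24%), with a median of 0.49. Itgb6, the beta chain of an integrin that releases TGF-beta in epithelia, had 157 wild-type fragments and 1 p65-null fragment, a log2 ratio of -6.81 (-12.12 to -4.31). It passed the minimum of 1 CPM only through the wild-type library. Tll1, a proteinase related to Bmp1, was 7.45-fold lower (6.22 to 8.97), and Itgav was at -0.85, or -0.16 after the correction. The microfibril gene Fbn2 was 7.73-fold higher (6.97 to 8.59), the convertase gene Pcsk6 4.10-fold (3.58 to 4.71), and Lrrc32, which displays latent TGF-beta on the cell surface, 2.14-fold (2.01 to 2.28), or 0.68 after the correction.

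Of 6 measured other ligands, 3 were at least 2-fold higher (background 12.2%) and 2 lower (background 13.7%). Gdf6 and Inha passed the minimum of 1 CPM only through the p65-null library, and Gdf5 and Gdf15 only through the wild-type library. These counts therefore lean on genes kept for being high in 1 library. Gdf6, with 0 wild-type and 74.5 p65-null fragments, was at least 27.6-fold higher by the lower end of its counting interval, and Gdf1 4.76-fold higher (3.54 to 6.48). Gdf1 shares a transcript with Cers1, so its value is uncertain. Gdf5, a ligand of joint and limb development that signals through Bmpr1b, was 9.52-fold lower (4.55 to 23.4), Gdf15 2.75-fold lower (1.37 to 6.05), and Gdf11 was at -0.48. Of 5 other receptors and co-receptors, 1 was at least 2-fold higher (background 12.2%), the decoy receptor gene Bambi at 2.35-fold (1.86 to 2.99), and 0 were lower (background 13.7%). Rgma, Rgmb and Neo1 were at 0.39, -0.95 and -0.18, and after the correction Rgma and Neo1 turned, to -0.06 and 0.02.

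Genes known to be induced by TGF-beta were divided: 5 of 26 measured were past 2-fold on the higher side (background 12.2%) and 7 on the lower (background 13.7%), with a median of -0.41. After the correction these counts were 3 (background 11.2%) and 7 (background 9.24%). Cnn1, a smooth muscle calponin, was 25.4-fold lower (21.2 to 30.6), the endothelin gene Edn1 6.48-fold (3.72 to 12.2), and the matricellular gene Ccn2 3.14-fold (3.03 to 3.25). Of these, Edn1 passed the minimum of 1 CPM only through the wild-type library. Cnn1 is also a smooth muscle marker; of that list Actg2 stood at 214 and 6.37 CPM and Acta2 at 2189 and 2999 CPM. Angptl4 was 13.0-fold higher (9.94 to 17.2), and the collagen genes Col3a1 and Col1a2 2.95-fold (2.88 to 3.02) and 2.60-fold (2.58 to 2.63). Of 8 measured genes known to be induced by BMPs, 3 were past 2-fold on the higher side (background 12.2%) and 2 on the lower (background 13.7%), with a median of -0.15. After the correction these counts were 2 (background 11.2%) and 1 (background 9.24%). Msx1, with 1 wild-type and 260 p65-null fragments, had a log2 ratio of 8.51 (6.02 to 13.82), Hey1 of 5.14 (4.44 to 5.93) and Atoh8 of 1.13, or 0.61 after the correction. Msx1 and Hey1 passed the minimum of 1 CPM only through the p65-null library. Alpl was 4.49-fold lower (3.32 to 6.18), and Id4 and Msx2 were at -1.02 and -0.97, with Id4 at -0.34 after the correction.

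**Figure D5:**
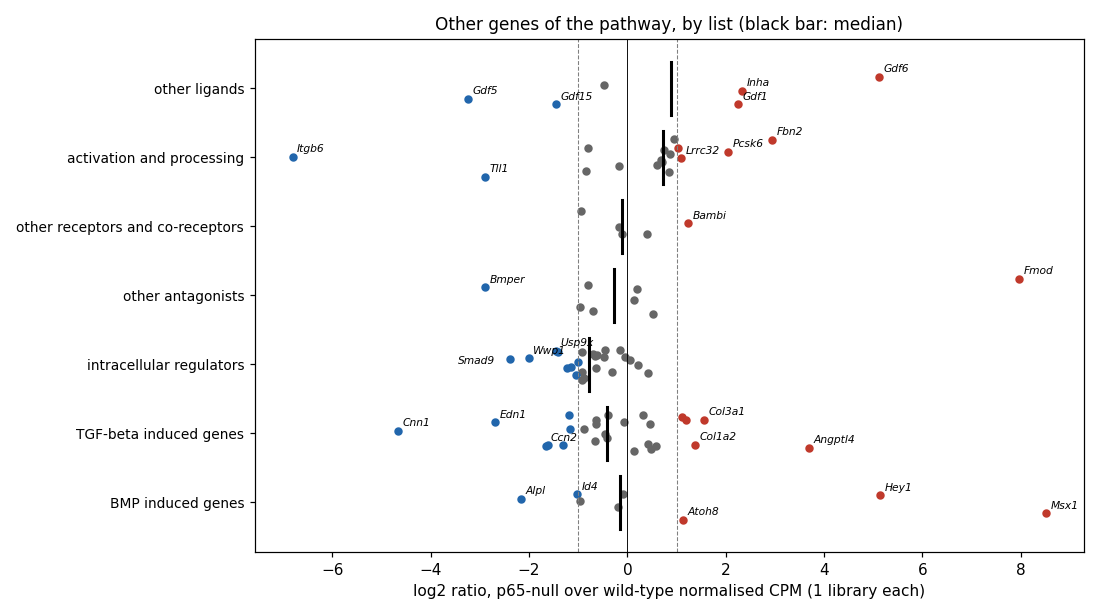
Each point is a measured gene of a pathway list, placed by its log2 ratio of p65-null over wild-type normalised CPM; black bars are the medians and dashed lines mark 2-fold, with Gdf6 drawn at its ratio to the floor of 3 fragments. The intracellular regulators lie mostly left of 0, with a median of -0.78, while genes induced by TGF-beta spread from Cnn1 at -4.67 to Angptl4 at 3.70.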

How the data were processed

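Total RNA from 1 library per genotype was sequenced on an Illumina HiSeq, per the labels. The build mm10 (GRCm38) and the tools STAR 2.4, bcl2fastq 2.16, edgeR and HOMER appear without roles, per the submitters' processing notes. The deposited values are a scaled signal: both columns sum to nearly the same total, so the raw counts planned for were replaced by recovered reads. All 16881 values of each column (100%) were whole multiples of 1 step, 0.436 for wild-type and 0.587 for p65-null, within 0.0055 units, and 2 steps were taken as 1 fragment because even multiples made up 72.8% and 75.7% of values of 1 to 20 steps. Transcripts were matched to symbols through a RefSeq table (16743) or GENCODE M21 (83), and 55 had no match. Libraries were normalised by TMM (edgeR 4.0.16, R 4.3.3). Lengths and GC contents are those of the matched GENCODE transcript (98.8% of measured genes). A count of 0 was set to 3 fragments for the ratio only. The bound given for such a gene is the lower end of its counting interval, which uses the count of 0 itself. No molecular identifiers are named in the sources used here, and intervals and floors reflect counting error alone. The calculation was tested on simulated data.

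The members, the lists and the tests were chosen with earlier results of these data known. All measured members are named; of each other list, up to 3 genes higher and 3 lower by the interval end nearest 0. Genes named as markers, neighbours or overlapping genes were named after their values were seen. Some genes are not reported here and are left out of the counts of the other lists. Alternatives were scaling by total counts, by DESeq2 1.42.0, by upper quartiles or by 80 ribosomal protein genes, a correction for GC content and length by loess (span 0.3), a prior count of 2, other expression minimums and the omission of the 10 most abundant genes.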

Additional observations from a re-analysis of the deposited data

How the results depend on the processing

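Between 6 and 7 pathway genes were at least 2-fold higher, and between 6 and 12 at least 2-fold lower, under every alternative run, against 6 and 8. The 12 came from scaling to ribosomal protein genes, which moved the median of all genes by -0.41 and left 899 genes higher and 3025 lower over the transcriptome, against 1478 and 1664. The share of higher genes among all those past 2-fold was then 22.9% against 47.0%, and 33.3% against 42.9% among the pathway genes. Upper quartile scaling moved the median of all genes by 0.12. The GC and length correction left 1108 genes lower and 1345 higher. The median of the pathway genes ranged from -0.37 to 0.16 over the normalisations and the correction, and their mean was 0.18. Of single genes, 8 changed sign under ribosomal protein scaling, 12 under the GC and length correction, 2 under total counts (Acvrl1 and Smad6), and 0 under the other normalisations, the prior count and the omission of abundant genes. No gene past 2-fold changed sign under any of these. Depth limits Acvrl1, Bmp4, Acvr2b and Acvr1, whose intervals reach 0. Those of Smad1 (-0.07 to 0.20) and Smad6 (-0.07 to 0.17) also reach 0, but they are narrow and lie around ratios of 0.06 and 0.05. No paired analysis was possible because each genotype has 1 library.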
